A study of Rattus norvegicus with 138 samples.

Results

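Serotonin neuron genes and serotonin receptors were followed through 3 nuclei of the rat brainstem. The set held 10 genes of the 32883 listed in each table, taken by symbol: the serotonin neuron genes Tph2, Slc6a4 and Fev, and the receptor genes Htr1a, Htr1b, Htr2a, Htr2c, Htr3a, Htr5b and Htr7. All 10 symbols had a row in each of the 3 regional tables. RNA was sequenced from tissue punches of the nucleus of the solitary tract (NTS), the caudal ventrolateral medulla (CVLM) and the rostral ventrolateral medulla (RVLM), the nuclei of the baroreflex path. Levels are given as CPM, the gene's count divided by its library's total and scaled to 1000000.

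The rats were untreated females of 2 inbred strains. SHR (SHR/NHsd), the spontaneously hypertensive rat, was compared with WKY (WKY/NHsd), its normotensive control strain, at 5 ages. SHR groups held 5 rats at 8 wk, 5 at 10 wk and 6 each at 12, 16 and 24 wk, and WKY groups held 5, 4, 3, 3 and 3 in that order. Each of the 46 rats gave 1 library per region, pooled from punches of both sides. SHR develops hypertension spontaneously and differs from WKY at many loci, so strain and blood pressure cannot be told apart in this design.

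Tph2 encodes the neuronal tryptophan hydroxylase that makes serotonin, Slc6a4 encodes the transporter that takes serotonin back up, and Fev (also known as Pet1) is a transcription factor that defines serotonin neurons. In the medulla these neurons lie mainly in the raphe nuclei near the midline and send axons to the NTS and ventrolateral medulla, where serotonin alters autonomic outflow through many receptors. Htr1a, Htr1b and Htr5b encode receptors coupled to inhibitory G proteins, Htr2a and Htr2c receptors coupled to Gq, Htr3a a subunit of a cation channel, and Htr7 a receptor that stimulates cyclic AMP.

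The 138 libraries held 5904570 to 17889406 counts (median 10143018), and a count of 0 allows a level of up to 0.168 to 0.508 CPM, depending on the library (3 counts, counting error only). Several libraries stood apart. In the NTS, 5 WKY libraries were rich in choroid plexus genes: the summed level of the 7 marker genes was 4813 CPM in WKY 12 wk replicate 2 and 116 CPM in the lowest of the 5, against at most 15.5 CPM in any other NTS library. In the CVLM the highest such sum was 205.6 CPM, in WKY 12 wk replicate 2, and the RVLM stayed at or under 14.9 CPM. WKY 10 wk replicate 4 was the CVLM library richest in Slc6a4 (choroid plexus sum 26.3 CPM), and 2 CVLM libraries of the 8 wk groups carried conflicting age labels and were placed by their titles. The library names end in a number whose meaning is not stated. It is 2 for every rat of 10 wk, for 3 of the 5 WKY rats of 8 wk and for 1 SHR rat each of 12 and 24 wk. The RVLM punches were rich in motor neuron markers, with a median summed level of 1721 CPM in SHR and 1623 CPM in WKY, against 152 and 134 CPM in the CVLM. Catecholaminergic markers were lower in the RVLM (medians 91.9 and 66.7 CPM) than in the CVLM (262 and 266 CPM).

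RefSeq promoter sequences were held for 6 of the 10 genes. Those of Tph2 and Htr5b are shown because these genes moved together in the CVLM and because Tph2 was the serotonin neuron gene with counts in every library. Each is the 250 bases before the annotated start, on the GRCr8 build: chr7:52675640-52675889 on the minus strand for Tph2 and chr13:35252587-35252836 on the minus strand for Htr5b. Capitals mark GGAA, the core bases bound by ETS factors such as Fev, on either strand (TTCC on the printed strand), and TATAAA, the sequence of many TATA boxes, on either strand.
Tph2: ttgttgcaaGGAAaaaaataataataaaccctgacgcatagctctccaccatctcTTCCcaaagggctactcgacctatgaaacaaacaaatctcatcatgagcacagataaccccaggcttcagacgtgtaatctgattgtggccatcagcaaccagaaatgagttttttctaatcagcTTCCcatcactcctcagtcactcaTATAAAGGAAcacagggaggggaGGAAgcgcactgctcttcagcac
Htr5b: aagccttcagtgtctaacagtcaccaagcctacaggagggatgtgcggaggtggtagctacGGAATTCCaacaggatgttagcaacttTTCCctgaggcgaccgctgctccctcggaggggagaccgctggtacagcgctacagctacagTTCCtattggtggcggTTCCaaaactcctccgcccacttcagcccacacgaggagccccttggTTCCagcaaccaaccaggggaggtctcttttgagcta
The Tph2 window held 5 matches to GGAA and 1 to TATAAA, whose first base lay 46 bases before the start and which ran directly into a GGAA. The Htr5b window held 6 matches to GGAA and none to TATAAA. The motif GGAA is short and occurred in 93.2% of the 33469 promoter windows of this length, and in 5 of the 6 held here. TATAAA occurred in 12.9% of them and, of the 6, in Tph2 alone.

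Tph2 was highest in the NTS, although the other serotonin neuron genes were close to absent there. Its level ranged from 11 to 43.5 CPM in the 46 NTS libraries (median 22.9), from 2.71 to 114 CPM in the CVLM (median 5.31) and from 1.12 to 14.1 CPM in the RVLM (median 2.56). The ranges overlapped: besides the CVLM library with 114 CPM, 3 CVLM libraries lay at or above the lowest NTS library and 10 NTS libraries at or under the highest of the other CVLM libraries (16.0 CPM). Within rats, the NTS exceeded the RVLM in Tph2 by 2.85 on the log2 scale (SE 0.14) and the CVLM by 1.81 (SE 0.13), and the CVLM exceeded the RVLM by 1.04 (SE 0.14), with adjusted p of 5.19e-31, 4.09e-21 and 1.50e-09 (edgeR's quasi-likelihood test with the rat as a block, Benjamini-Hochberg adjustment). In such bulk tissue, fewer cells of a type and less RNA per cell cannot be told apart.

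Slc6a4 did not follow Tph2 across the regions. In the NTS no library held more than 12 counts of Slc6a4 and 16 of 46 held none, with a median of 0.108 CPM. The CVLM median was 0.273 CPM with 9 libraries at 0, and the RVLM median was 0.109 CPM with 13 at 0. Summed over libraries, Slc6a4 counts were 0.667%, 14.1% and 9.33% of the Tph2 counts in NTS, CVLM and RVLM. Without the rat WKY 10 wk replicate 4 these shares were 0.709%, 7.51% and 8.71%. Thus a given count of Tph2 came with fewer counts of Slc6a4 in the NTS than in either ventrolateral region, with or without that rat.

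Fev and Lmx1b, which encodes a further transcription factor of serotonin neurons, were at or near 0 throughout. Fev reached 3 counts at most in the NTS, where 24 of 46 libraries held none, 27 counts in the CVLM (23 libraries at 0) and 5 counts in the RVLM (31 at 0). Its counts were 0.313%, 1.55% and 1.69% of those of Tph2 in NTS, CVLM and RVLM. Lmx1b reached 2, 3 and 1 counts in the NTS, CVLM and RVLM, with 27, 39 and 43 libraries at 0. Fev and Lmx1b were thus at the floor in most libraries of all 3 regions, the NTS with its higher Tph2 included. Even in the CVLM library richest in Tph2, Fev counts were only 1.47% of the Tph2 counts. Fev counts near 0 therefore say little where Tph2 counts are low. All 7 listed serotonin neuron markers, Ddc and Slc18a2 of other monoamine neurons included, had higher sums. Their medians in SHR and WKY were 103.1 and 123.7 CPM (NTS), 82.0 and 83.5 (CVLM), and 38.9 and 33.5 (RVLM).

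**Figure D1:**
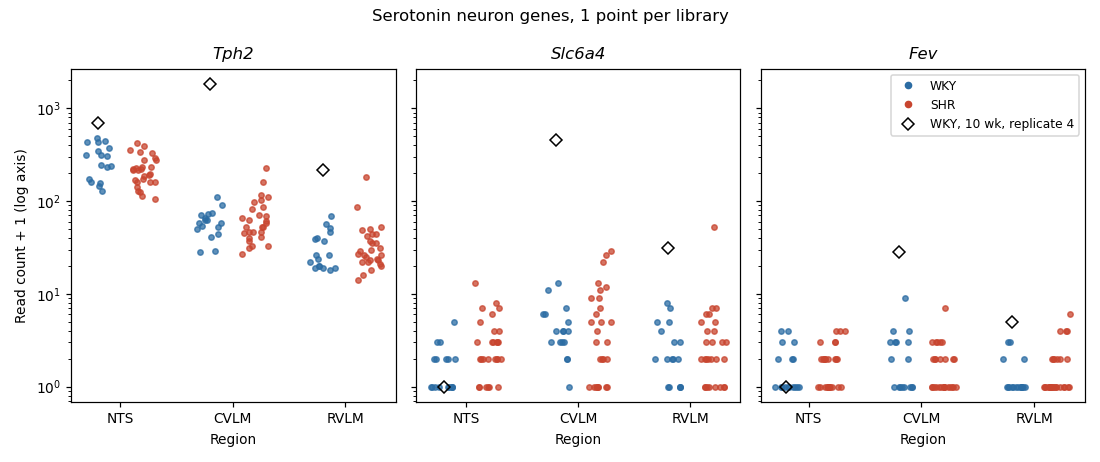
Counts of Tph2, Slc6a4 and Fev in each library of the NTS, CVLM and RVLM, as read count + 1 on a log axis, with SHR and WKY in different colours; each point is 1 library and diamonds mark the rat WKY 10 wk replicate 4. Most NTS libraries lie high for Tph2 and near the bottom for Slc6a4 and Fev, and the CVLM diamond stands far above the other libraries for Tph2 (1842 counts) and Slc6a4 (454 counts).

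Tph2 and Slc6a4 were high together in a few ventrolateral libraries. WKY 10 wk replicate 4 of the CVLM held 1842 counts of Tph2, 454 of Slc6a4 and 27 of Fev, at 114 CPM for Tph2 against 4.97, 2.83 and 5.51 CPM in the other 3 libraries of its group. Slc6a4 stood at 28.1 CPM there, against 0.134, 0.0659 and 0.368 CPM. The same library held 3958 counts of Trh, the precursor of thyrotropin-releasing hormone, which medullary serotonin neurons also make. The same rat was high in the RVLM, with Tph2 at 14.1 CPM (218 counts) and Slc6a4 at 1.94 CPM (30 counts), but its NTS library held 688 counts of Tph2 and none of Slc6a4. SHR 10 wk replicate 2 was the other RVLM library of this kind, with Tph2 at 11.4 CPM and Slc6a4 at 3.27 CPM. In the CVLM, SHR 24 wk replicate 4 (Tph2 16.0 CPM, Slc6a4 2.12 CPM, no count of Fev) and SHR 12 wk replicate 6 (Tph2 14.7 CPM, Slc6a4 1.82 CPM) were next in order for Tph2.

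Htr5b tended to be high with these genes in the CVLM, though not in every library. It was at 21.7 CPM in WKY 10 wk replicate 4, 17.9 CPM in SHR 24 wk replicate 4 and 12.5 CPM in SHR 12 wk replicate 6, while the median over the 46 CVLM libraries was 1.94 CPM. In SHR 24 wk replicate 6, by contrast, Htr5b was at 7.50 CPM with Tph2 at 4.02 CPM, under its CVLM median of 5.31 CPM. After the strain and age means were taken out, log2 levels of Htr5b and Tph2 correlated with r = 0.72 over the 46 CVLM libraries and 0.60 over 45 without WKY 10 wk replicate 4. The same pair of values was 0.74 and 0.62 for Htr5b with Slc6a4, 0.85 and 0.59 for Tph2 with Slc6a4, and 0.75 and 0.66 for Tph2 with Trh. For Tph2 with Fev, r was 0.52 over all libraries and -0.02 without that library. In the RVLM r was 0.61 for Tph2 with Slc6a4 (0.46 without that rat) but 0.08 for Tph2 with Htr5b, and in the NTS it was -0.26 and -0.13. The 45 CVLM libraries still held SHR 24 wk replicate 4 and SHR 12 wk replicate 6, named above as high. The points share a region and a sequencing depth per library, and low counts of Slc6a4 and Fev make these values coarse.

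The NTS levels of Tph2 moved with other genes than Slc6a4 and Htr5b. Over 46 NTS libraries, genes most like Tph2 included P2rx2 (r = 0.80), which encodes an ATP-gated channel, Matn2 (0.79), Ddc (0.75), the decarboxylase that completes serotonin and dopamine synthesis, and A2m (0.75), out of 13616 genes compared. In the CVLM the genes most like Slc6a4 were Tph2, Trh (0.75), Htr5b, Olr59 (0.68) and AC108576.1 (0.60).

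The receptors split by region. Htr2a and Htr2c were highest in the RVLM, Htr1a and Htr5b were lowest there, and Htr1b and Htr3a were lowest in the NTS. Median levels of Htr2a were 19.0, 23.6 and 44.2 CPM in NTS, CVLM and RVLM, with ranges of 6.54 to 36.7, 9.73 to 39.1 and 20.5 to 81.1 CPM over 46 libraries each. Within rats Htr2a was lower in the NTS than in the RVLM by -1.40 log2 (SE 0.09, adjusted p = 2.57e-24), lower in the NTS than in the CVLM by -0.48 (SE 0.09, adjusted p = 2.77e-06) and lower in the CVLM than in the RVLM by -0.92 (SE 0.09, adjusted p = 2.32e-15). Htr2c kept the same order, with medians of 155.8, 184.9 and 228.2 CPM and differences of -0.78, -0.43 and -0.35 log2 for the same 3 comparisons (adjusted p of at most 1.43e-06).

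Htr1a had medians of 8.50, 9.02 and 5.74 CPM in NTS, CVLM and RVLM. It was higher in the CVLM than in the RVLM by 0.57 log2 (SE 0.09, adjusted p = 7.40e-08) and in the NTS than in the RVLM by 0.39 (SE 0.09, adjusted p = 7.76e-05), while the difference of NTS and CVLM was not called (-0.18, adjusted p = 0.0654). That difference was called without replicate 3 of every group (-0.27, adjusted p = 0.0217), with adjusted p from 0.0217 to 0.341 over all alternatives. Htr5b kept that pattern at lower levels, with medians of 2.03, 1.94 and 1.16 CPM, differences from the RVLM of 1.15 in the CVLM (SE 0.23, adjusted p = 1.17e-05) and 0.82 in the NTS (SE 0.23, adjusted p = 0.000981), and no called difference between NTS and CVLM (-0.33, adjusted p = 0.178), although it was called without the rat as a block (-0.55, adjusted p = 0.0166, from a range of 0.0166 to 0.702 over all alternatives).

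Htr1b had medians of 3.13, 4.83 and 3.74 CPM in the NTS, CVLM and RVLM. It was lower in the NTS than in the CVLM by -0.51 log2 (SE 0.11, adjusted p = 4.16e-05) and than in the RVLM by -0.37 (SE 0.11, adjusted p = 0.00197), the latter no longer called without the 5 NTS libraries rich in choroid plexus genes (-0.25, adjusted p = 0.0723, from a range of 0.000903 to 0.0723 over all alternatives). The CVLM and RVLM did not differ beyond their spread (0.14, adjusted p = 0.301). Htr3a showed the same order of calls, -0.26 (adjusted p = 0.00185) against the CVLM and -0.36 (adjusted p = 1.77e-05) against the RVLM, with CVLM and RVLM at -0.10 (adjusted p = 0.263), and medians of 9.17, 9.50 and 9.66 CPM.

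Htr7 was close to undetected. It had 8 counts in 1 NTS library (SHR 24 wk replicate 3, 0.919 CPM), 1 count in 1 RVLM library and none in the other 136 libraries. It was tested in no region, nor was Fev. Slc6a4 entered the CVLM test alone, and only through WKY 10 wk replicate 4, the library that made it pass the filter on low values. The other 7 genes were tested in all 3 regions.

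In the fit over all regions, 19 of 24 tests of the members were called at an adjusted p under 0.05 (21 at an unadjusted p under 0.05). This has to be read against a background in which 72.7% of all 14043 genes differed between NTS and RVLM, 65.9% between NTS and CVLM and 54% between CVLM and RVLM. Of the members 7 of 8, 6 of 8 and 6 of 8 were called in these comparisons, with median differences of -0.36, -0.38 and 0.35 log2, against -0.01, 0.01 and -0.00 over all genes. Slc6a4 gave 2 of the 19 calls and was the least certain of the members, since it passed the filter only through the library where it was high. It was lower in the NTS than in the CVLM by -2.23 log2 (SE 0.46, adjusted p = 1.50e-05), and by -2.0 (adjusted p = 5.46e-05) without that library. The adjusted p ran from 1.48e-05 to 0.005 over all alternatives. Fits without that library kept Slc6a4 among the genes tested, although it had entered only through that library, so they are no independent test. Median levels of Slc6a4, 0.108 CPM in the NTS and 0.273 CPM in the CVLM, were at or near the floor. Its difference between CVLM and RVLM (1.11, SE 0.38, adjusted p = 0.0103) was no longer called without WKY 10 wk replicate 4 of the CVLM (0.83, adjusted p = 0.0568), without the 2 libraries of conflicting age (0.97, adjusted p = 0.111), or without replicate 4 (0.76, adjusted p = 0.0652) or replicate 5 (1.00, adjusted p = 0.117) of every group. Its adjusted p ranged from 0.00389 to 0.117 over all alternatives. Between NTS and RVLM it was not called (-1.12, adjusted p = 0.0639), but it was without replicate 1 (-1.63, adjusted p = 0.0277) or replicate 5 (-1.29, adjusted p = 0.0498) of every group and without the CVLM library (-1.17, adjusted p = 0.0451), with adjusted p from 0.0277 to 1 over all alternatives.

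**Figure D2:**
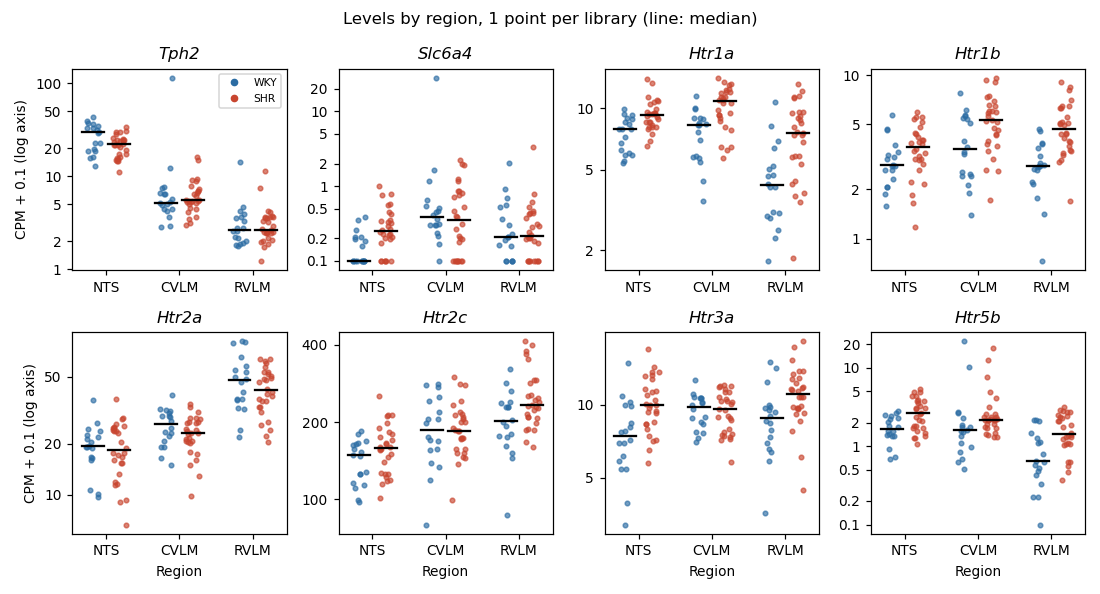
Levels of 8 members (all but Fev and Htr7) in the NTS, CVLM and RVLM as CPM + 0.1 on a log axis, each point 1 library, WKY and SHR apart, with a line at the median of each strain. Tph2 falls from NTS to RVLM in both strains, Htr2a and Htr2c rise from NTS to RVLM, and many Slc6a4 points lie at the bottom of the axis, where the count was 0.

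The strain comparison asked whether hypertensive rats express these genes differently. Averaged over the 5 ages, 8 of 22 tests of the members were called, all with higher levels in SHR: Htr1a in all 3 regions, Htr1b in the CVLM and RVLM, Htr5b in the NTS and RVLM, and Htr3a in the NTS. By region 3 of 7, 2 of 8 and 3 of 7 were called in the NTS, CVLM and RVLM, where the strains differed at 11.2%, 12.3% and 10.8% of all genes tested. The median difference of the members was 0.24, -0.01 and 0.24 log2 in NTS, CVLM and RVLM, against 0.01, -0.00 and 0.01 over all genes. A total of 11 tests had an unadjusted p under 0.05, and DESeq2 also called 8.

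Htr1a, the inhibitory autoreceptor of serotonin neurons that many other neurons carry too, was higher in SHR in each region. In the RVLM it ranged from 1.68 to 10.7 CPM in 18 WKY libraries (median 4.08) and from 1.74 to 13.0 CPM in 28 SHR libraries (median 7.49). The strains overlapped, but 24 of the 28 SHR libraries lay above the WKY median, and the SHR mean was the higher at all 5 ages. The difference was 0.65 log2 (SE 0.16, adjusted p = 0.00498), or 1.57-fold. In the CVLM the WKY range was 3.41 to 11.4 CPM (median 8.16) and the SHR range 5.59 to 14.1 CPM (median 10.7), a difference of 0.45 (SE 0.11, adjusted p = 0.00262). In the NTS the ranges were 5.32 to 9.84 CPM (median 7.81) and 6.46 to 13.9 CPM (median 9.20), a difference of 0.30 (SE 0.08, adjusted p = 0.0114). SHR means were the higher at all 5 ages in these regions too. With the replicate number as a block, Htr1a was not called in the RVLM (0.65, adjusted p = 0.0825) or the NTS (0.28, adjusted p = 0.0515). The CVLM call held.

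Htr1b, an inhibitory receptor found mainly on axon terminals, differed most clearly in the ventrolateral medulla. In the RVLM it ranged from 0.632 to 4.60 CPM in WKY (median 2.69) and from 1.59 to 8.93 CPM in SHR (median 4.60). Of the 28 SHR libraries 27 lay above the WKY median and 14 above every WKY library. The difference was 0.74 log2 (SE 0.16, adjusted p = 0.000762), or 1.67-fold. In the CVLM the medians were 3.42 CPM in WKY and 5.18 CPM in SHR, with ranges of 1.3 to 7.65 and 1.62 to 9.54 CPM, and the difference was 0.64 (SE 0.15, adjusted p = 0.00209). In the NTS it was 0.24 (SE 0.16, adjusted p = 0.433). These were the 2 called strain differences of Htr1b averaged over the ages, and both were also called in each fit that left out 1 rat.

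Htr5b, a receptor of the same inhibitory class whose human counterpart is a pseudogene, was higher in SHR in the NTS and RVLM. In the NTS it ranged from 0.59 to 2.7 CPM in WKY (median 1.55) and from 0.980 to 5.23 CPM in SHR (median 2.54), with 13 of 28 SHR libraries above every WKY library, and the difference was 0.73 log2 (SE 0.21, adjusted p = 0.0153). In the RVLM counts were low, at 0 to 22 per library in WKY (median 0.546 CPM) and 4 to 44 in SHR (median 1.33 CPM), and the difference was 0.90 (SE 0.26, adjusted p = 0.0169). The RVLM difference was not called with the replicate number as a block (0.94, adjusted p = 0.101). In the CVLM, where the highest levels of Htr5b were in libraries rich in Slc6a4, the difference was 0.25 (SE 0.40, adjusted p = 0.792). Without the 5 NTS libraries rich in choroid plexus genes, an exclusion chosen after seeing the data, the NTS difference was 0.59 and no longer called (adjusted p = 0.165). Over all alternatives tried for it, the adjusted p ranged from 0.00205 to that value.

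Htr3a, the channel subunit, was called in the NTS only narrowly. It ranged from 3.10 to 14.8 CPM in WKY (median 7.33) and from 5.66 to 16.9 CPM in SHR (median 9.89), a difference of 0.40 log2 (SE 0.13, adjusted p = 0.0449). This call was lost on leaving out 1 rat for 25 of the 46 rats (adjusted p up to 0.0894, without WKY 24 wk replicate 3), without a filter on low counts (0.40, adjusted p = 0.0621) and without the 5 libraries rich in choroid plexus genes (0.32, adjusted p = 0.257), with a range of 0.00283 to 0.257 over all alternatives. In the RVLM the difference was 0.24 (adjusted p = 0.164) and in the CVLM -0.09 (adjusted p = 0.594).

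Tph2 had lower values in SHR than in WKY in the NTS without passing the test. The NTS range was 12.6 to 43.5 CPM in 18 WKY libraries (median 29.4) and 11 to 33.3 CPM in 28 SHR libraries (median 21.8), with 4 of 28 SHR libraries above the WKY median. The difference was -0.33 log2 (SE 0.12, adjusted p = 0.0844). It was called without WKY 12 wk replicate 1 (-0.38, adjusted p = 0.0334) or WKY 24 wk replicate 1 (-0.39, adjusted p = 0.0318), and moved to -0.16 (adjusted p = 0.632) without the 5 WKY libraries rich in choroid plexus genes. Over all alternatives the adjusted p ran from 0.0318 to 0.632. In those 5 libraries Tph2 was at 43.5, 38.8, 32.9, 22.8 and 22.8 CPM. In the CVLM and RVLM the Tph2 differences were -0.39 (SE 0.29, adjusted p = 0.477) and -0.06 (SE 0.23, adjusted p = 0.917).

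The remaining genes passed the strain test in no region. For Htr2a the differences were -0.11, -0.16 and -0.17 log2 in the NTS, CVLM and RVLM, and for Htr2c 0.15, 0.08 and 0.22 (lowest adjusted p = 0.154, in the RVLM). Slc6a4 in the CVLM was at -0.94 (SE 0.68, adjusted p = 0.466). Among other cell types, summed markers of neurons in general had close medians in SHR and WKY (3223 and 3340 CPM in the NTS, 4467 and 4597 in the CVLM, 5053 and 5151 in the RVLM). Blood cell markers were lower in SHR (448.5 against 728.8 CPM, 386 against 747 and 386 against 645), and markers of vessel smooth muscle and pericytes were higher (44.4 against 30.6, 48.4 against 34.8 and 48.4 against 33.9 CPM). More specific neuron lists differed more in the RVLM. Markers of medullary viscerosensory and reticular neurons were higher in SHR there (335.7 against 266.9 CPM). They were lower in SHR in the NTS (702.8 against 745.4) and CVLM (604.6 against 656.5). Catecholaminergic markers ran the same way (91.9 against 66.7 CPM in the RVLM, 218 against 253.6 in the NTS, 262.4 against 265.9 in the CVLM). The part of all these markers in the receptor differences was not tested.

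**Figure D3:**
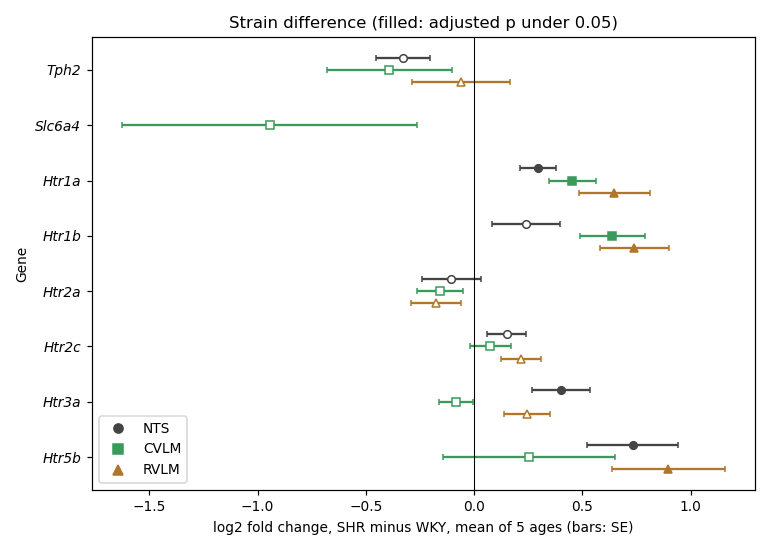
Difference between SHR and WKY averaged over the 5 ages, in log2, for each member tested in the NTS, CVLM and RVLM; bars give the standard error and filled points mark an adjusted p under 0.05. The called points are Htr1a in 3 regions, Htr1b in the CVLM and RVLM, Htr5b in the NTS and RVLM, and Htr3a in the NTS, all above 0.

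At single ages few members passed, and the called ones clustered in 2 groups. Of 110 tests 4 were called (22 at an unadjusted p under 0.05), and DESeq2 called 3, of which Htr1b in the CVLM at 12 wk was not among the 4. Its difference was 1.18 log2 (adjusted p = 0.0748), 1.20 (adjusted p = 0.0345) with DESeq2, and called without SHR 12 wk replicate 1 (1.36, adjusted p = 0.0136) or WKY 12 wk replicate 2 (1.67, adjusted p = 0.0274), with adjusted p from 0.0136 to 0.636 over all alternatives. Over all genes the called share, in order of age from 8 to 24 wk, was 5.79%, 4.44%, 3.1%, 1.73% and 2.46% in the NTS, where no member was called. It was 7.64%, 3.18%, 2.62%, 2.27% and 7.13% in the CVLM, where 2 of 8 members were called at 10 wk. It was 9.78%, 2.3%, 1.7%, 1.65% and 2.24% in the RVLM, where 2 of 7 were called at 8 wk.

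The RVLM calls at 8 wk, an age the paper considers prehypertensive in SHR, were Htr1b and Htr1a. Htr5b, the third inhibitory receptor, was not called. After group means were taken out, Htr1a and Htr1b correlated with r = 0.68 over the 46 RVLM libraries. Each also correlated with Htr2c (0.67 and 0.68). The 2 calls are therefore not independent of each other. Htr1b stood at 2.79, 1.67, 0.632, 2.68 and 2.57 CPM in the 5 WKY rats and at 2.85, 4.91, 5.45, 6.39 and 4.29 CPM in the 5 SHR rats, so the groups did not overlap. The difference was 1.07 log2 (SE 0.33, adjusted p = 0.0321). Htr1a stood at 4.94, 4.53, 2.21, 2.42 and 1.68 CPM in WKY and at 3.59, 8.34, 7.34, 9.47 and 6.77 CPM in SHR. All but 1 of the SHR values lay above every WKY value, and the difference was 1.07 (SE 0.34, adjusted p = 0.0384). The library-name number is 2 for WKY replicates 3, 4 and 5 of 8 wk and 1 for every 8 wk SHR rat. Strain and number can therefore be told apart only in part at this age. Htr1a was lower in those WKY rats (2.21, 2.42 and 1.68 CPM) than in the other WKY rats (4.94 and 4.53 CPM). Their Htr1b values overlapped. With the number as a term the differences were 0.76 for Htr1a (adjusted p = 0.326) and 0.95 for Htr1b (adjusted p = 0.219). Neither call held when 8 wk was fitted alone or with the number in the library names as a term, and leaving out 1 rat lost it in several cases, all 8 wk rats. For Htr1a these were SHR replicates 2, 3, 4 and 5 and WKY replicates 3, 4 and 5 (adjusted p = 0.0618 to 0.11), and for Htr1b SHR replicates 2, 3 and 4 and WKY replicates 2 and 3 (adjusted p = 0.0595 to 0.12). Over all alternatives the adjusted p ran from 0.016 to 0.326 for Htr1a and from 0.0167 to 0.219 for Htr1b. Htr5b and Htr3a at 8 wk had RVLM differences of 1.53 (adjusted p = 0.0908) and 0.55 (adjusted p = 0.0994). The Htr3a difference was called without WKY 8 wk replicate 1 (0.66, adjusted p = 0.0464, from a range of 0.0464 to 0.564 over all alternatives).

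The CVLM calls at 10 wk rested on a single library. Tph2 was lower in SHR by -2.47 log2 (adjusted p = 0.0112) and Slc6a4 by -3.56 (adjusted p = 0.0427), while the 5 SHR libraries held Tph2 at 6.03, 7.17, 4.31, 8.65 and 3.51 CPM. Without WKY 10 wk replicate 4, described above, the differences reversed to 0.41 (adjusted p = 0.96) for Tph2 and 1.62 (adjusted p = 0.815) for Slc6a4. The Slc6a4 call was also lost under DESeq2 (adjusted p = 0.114), with no filter on low counts (0.087) and without SHR 10 wk replicate 1, 2, 3 or 5, SHR 8 wk replicate 3, WKY 24 wk replicate 1 or WKY 8 wk replicate 3 (0.0506 to 0.122). Neither call held when 10 wk was fitted alone (0.486 for Tph2 and 0.508 for Slc6a4). Over all alternatives the adjusted p ran from 0.0011 to 0.96 for Tph2 and from 0.014 to 0.815 for Slc6a4.

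**Figure D4:**
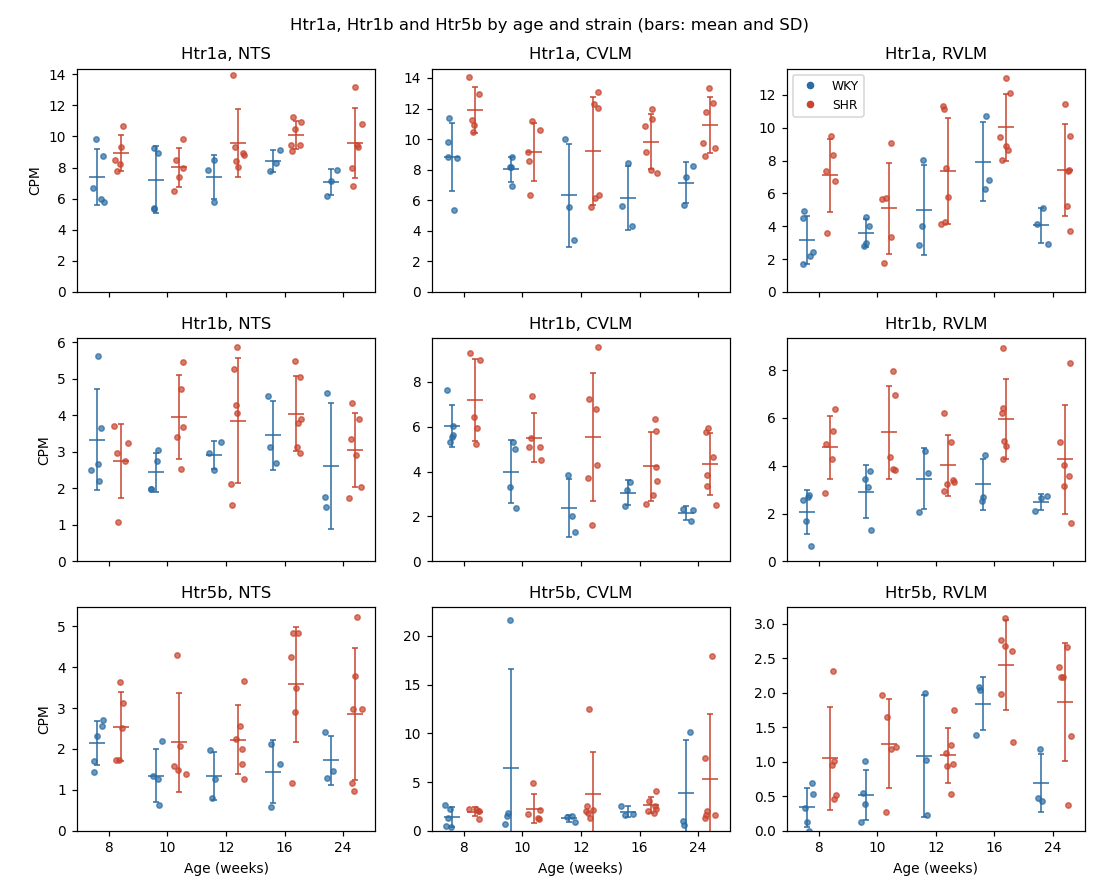
Levels of Htr1a, Htr1b and Htr5b in CPM by age (8, 10, 12, 16, 24 wk) in the NTS, CVLM and RVLM, each point 1 library, with group means and SD (bars end at 0 where they would go below it) for SHR and WKY. For Htr1b in the RVLM the SHR mean lies above the WKY mean at every age, with no overlap at 8 wk (2.85 CPM or more in SHR, 2.79 CPM or less in WKY).

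Age was asked about within each strain, with 1 test over the 5 ages. Of 44 such tests 6 were called (13 at an unadjusted p under 0.05). Over all genes the called share was 18.7% in SHR and 12.5% in WKY for the NTS, 20% and 22.2% for the CVLM, and 14.1% and 6.79% for the RVLM. Among members 1 of 7 was called in SHR and none in WKY in the NTS, none of 8 in SHR and 4 of 8 in WKY in the CVLM, and 1 of 7 in SHR and none in WKY in the RVLM. With the number in the library names as a term none of the 6 was called (adjusted p = 0.115 to 0.82). The largest change against 8 wk was taken at whichever age it fell, so the age can differ between the fits. For Htr2a of SHR it went from 1.13 to 1.07 log2 in the NTS and from -0.59 to -0.59 in the RVLM. Without the term, 1.13 was the 10 wk change, while the 16 wk changes were 1.07 and -0.59. Every SHR rat of 8 and 16 wk had number 1, so the term does not adjust a change at 16 wk. The 10 wk change of Htr2a with the term is not reported here. In the CVLM of WKY the largest change went from 2.77 to 2.68 for Tph2 and from 4.84 to 4.59 for Slc6a4. For Htr1b and Htr2c there it went from -1.48 to -1.57 and from -0.79 to -0.74. Since that number is 2 for every 10 wk rat, age and the number can be told apart only through the other ages.

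Htr2a, the Gq-coupled receptor that excites motor neurons, changed with age in SHR in 2 regions. In the NTS it stood at 11.8, 8.98, 13.1, 9.21 and 6.54 CPM in the 5 SHR rats of 8 wk and at 17.5, 28.1, 25.4, 18.9 and 24.1 CPM in those of 10 wk, without overlap. The number in the library names was 1 for every SHR rat of 8 wk and 2 for every SHR rat of 10 wk. Age and number therefore cannot be told apart between these ages. The SHR rats of 12 and 24 wk with number 2 had the highest NTS levels of their groups (36.7 and 25.2 CPM). Every rat of 16 wk had number 1. Means at 12, 16 and 24 wk were 22.4, 22.3 and 18.2 CPM (SD 8.76, 5.20 and 5.09), so that 8 wk was the low age. The test over ages gave an adjusted p of 0.0215, with a rise from 8 to 10 wk of 1.13 log2 (SE 0.29). All 5 motor neuron markers were also called over the ages of SHR in the NTS, with a mean summed level of 206.9 CPM (SD 22.9) at 8 wk and 425.1 CPM (SD 106) at 10 wk, and their part in the Htr2a values was not tested. The Htr2a test was not called without SHR 8 wk replicate 2 (0.0591), 4 (0.0530) or 5 (0.0743). In WKY the 8 wk values were 19.5, 16.5, 36.1, 9.96 and 10.6 CPM, and the strain difference at 8 wk was -0.84 (SE 0.29, adjusted p = 0.0723). It was called without WKY 8 wk replicate 4 (-1.0, adjusted p = 0.0469, from a range of 0.0469 to 0.521 over all alternatives).

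In the RVLM Htr2a of SHR was lowest at 16 wk. Its values were 25.8, 33.0, 20.5, 38.4, 24.0 and 32.9 CPM then, with a mean of 29.1 CPM (SD 6.75, n = 6), against 57.8 CPM (SD 7.02, n = 5) at 10 wk and 42.5 CPM (SD 11.7, n = 5) at 8 wk. The number in the library names was 1 for every rat of 16 wk and 2 for every rat of 10 wk. Age and number cannot be told apart between these ages. SHR rats of 8 wk had number 1 too. The SHR rats of 12 and 24 wk with number 2 had the highest RVLM levels of their groups (61.8 and 50.2 CPM). The test over ages gave an adjusted p of 0.0205, and it was not called without SHR 10 wk replicate 3 (0.0527), SHR 10 wk replicate 4 (0.0595) or SHR 16 wk replicate 3 (0.0511). WKY means ran in the same order, 69.0 CPM at 10 wk and 32.4 CPM at 16 wk, with an adjusted p of 0.057. The summed motor neuron markers moved with it: their mean in the RVLM was 1841 CPM at 10 wk and 1208 CPM at 16 wk in SHR and 2037 and 1202 CPM in WKY. Over the 46 RVLM libraries, after group means were taken out, the gene most like Htr2a was Slc5a7 (r = 0.94), the choline transporter of cholinergic neurons. The part of the motor neuron content in the Htr2a values was not tested.

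In the CVLM of WKY, Htr1b and Htr2c declined. Htr1b stood at 7.65, 5.55, 5.34, 5.64 and 6.04 CPM at 8 wk, at 1.3, 3.83 and 2.03 CPM at 12 wk and at 2.31, 1.80 and 2.33 CPM at 24 wk, so every 12 and 24 wk rat lay below every 8 wk rat. The test over ages gave an adjusted p of 0.00607, with changes against 8 wk of -1.38 log2 (SE 0.37) at 12 wk and -1.48 (SE 0.38) at 24 wk. In SHR the means were 7.18 CPM at 8 wk and 4.33 CPM at 24 wk, and the test over ages was not called (adjusted p = 0.136). Htr2c in WKY had means of 236.7, 236.4, 149.3, 142.8 and 147.8 CPM in order of age (adjusted p = 0.00555). The other 2 calls in this group, Tph2 (adjusted p = 0.00146) and Slc6a4 (adjusted p = 0.00295), were lost without WKY 10 wk replicate 4 (0.155 and 0.761).

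**Figure D5:**
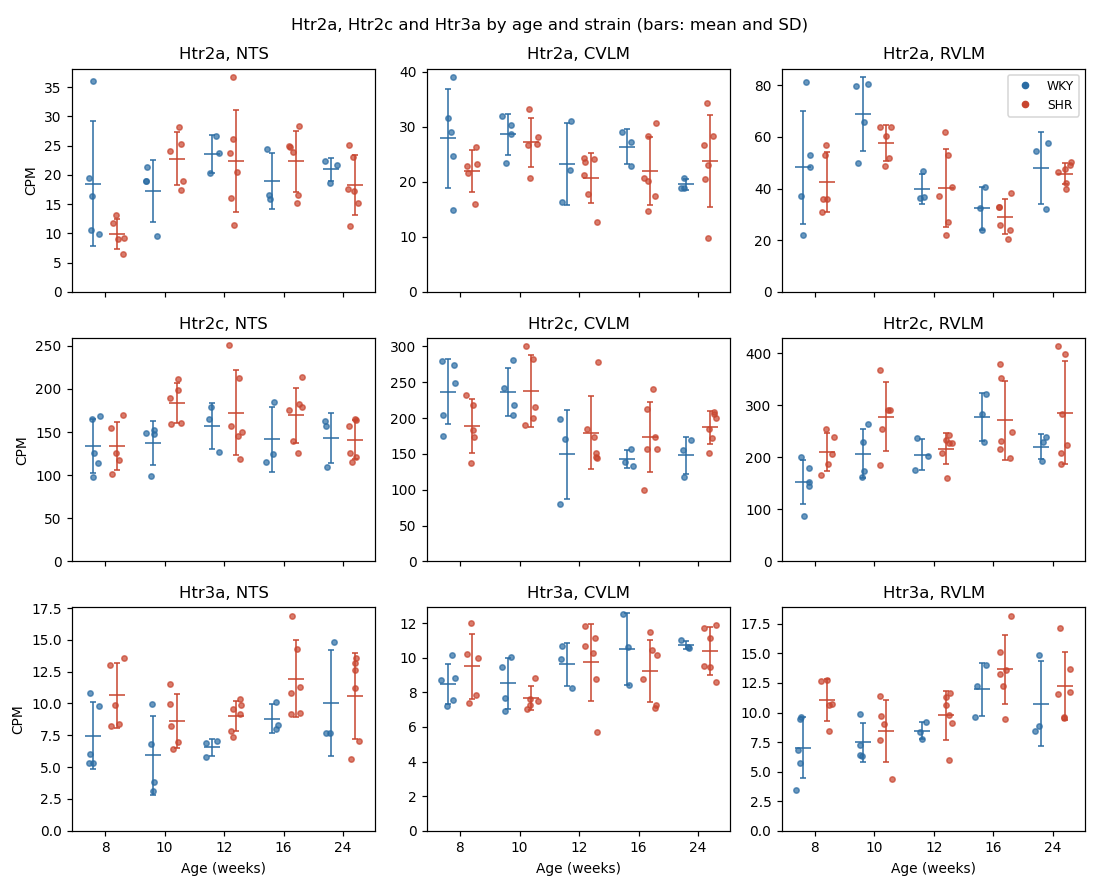
Levels of Htr2a, Htr2c and Htr3a in CPM by age (8, 10, 12, 16, 24 wk) in the NTS, CVLM and RVLM, each point 1 library, with group means and SD for SHR and WKY. Htr2a of SHR is lowest at 8 wk in the NTS (mean 9.94 CPM) and at 16 wk in the RVLM (mean 29.1 CPM).

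The strain difference of no member changed with age or region beyond the threshold. For the interaction of strain and age, edgeR called 0 of 22 tests (1 at an unadjusted p under 0.05, Tph2 in the CVLM at 0.00675), and DESeq2 called 0 with none under 0.05. Few genes were called at all, 0.0145%, 0.0224% and 0.00746% of those tested in NTS, CVLM and RVLM. For the difference of the strain effect between regions, edgeR and limma each called 0 of 24 tests, with 4 at an unadjusted p under 0.05 in each. Over all genes the called share was 1.82% between NTS and RVLM, 0.449% between NTS and CVLM and 0.32% between CVLM and RVLM. The largest of the 4 by rank was Htr3a, whose NTS strain difference exceeded that of the CVLM by 0.49 log2 (SE 0.15, adjusted p = 0.165). For Htr1b, called in the ventrolateral regions and not in the NTS, the difference of the strain effect was -0.50 (SE 0.22, adjusted p = 0.325) between NTS and RVLM and -0.41 (SE 0.22, adjusted p = 0.713) between NTS and CVLM.

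Among other genes of serotonin signalling, Qdpr and Tac1 were called between the strains in more than 1 region. Over all genes tested the called share was 11.2%, 12.3% and 10.8% in NTS, CVLM and RVLM. A lack of calls in lists as short as those below therefore says little. Of 7 other receptor genes (Htr1d, Htr1f, Htr2b, Htr3b, Htr4, Htr5a and Htr6), 4, 4 and 3 were tested in the NTS, CVLM and RVLM and none was called. Htr1f was the nearest, at 0.40 log2 in the NTS (SE 0.18, adjusted p = 0.161). Of 7 genes of synthesis and its cofactor, Qdpr was the only one called. Qdpr, which recycles the tetrahydrobiopterin cofactor, was lower in SHR by -0.30 log2 in the CVLM (SE 0.05, adjusted p = 4.45e-06) and by -0.33 in the RVLM (SE 0.05, adjusted p = 1.15e-05), with -0.10 in the NTS (adjusted p = 0.561).

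Of 6 genes for vesicle loading, uptake and breakdown, 6, 6 and 5 were tested and none was called. Slc22a3, a low-affinity transporter, was closest, at -0.85 in the NTS (SE 0.32, adjusted p = 0.0871) and -0.58 in the CVLM (SE 0.22, adjusted p = 0.0744). Of 6 transcription factor genes with a row 2, 3 and 3 were tested and none was called, Gata3 being nearest at 0.59 in the RVLM (SE 0.22, adjusted p = 0.0856). Of the cotransmitter genes Tac1, the precursor of substance P, was lower in SHR in all 3 regions, by -0.44 in the NTS (SE 0.15, adjusted p = 0.0496), -0.24 in the CVLM (SE 0.07, adjusted p = 0.0151) and -0.48 in the RVLM (SE 0.15, adjusted p = 0.0273), while Trh was called in none. S100a10, a partner protein of the Htr1b receptor, was called in none.

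Between regions these genes differed widely, as most genes did, and those named here were picked after their values were seen. Ddc in the NTS exceeded the RVLM by 1.71 log2 (SE 0.05) and the CVLM by 0.92 (SE 0.05), the order that Tph2 had. Slc18a2, the vesicular transporter shared by all monoamine neurons, was higher in the CVLM than in the RVLM by 1.65 (SE 0.09) and slightly higher than in the NTS (-0.36 for NTS minus CVLM, SE 0.09). Gata3 and Gata2, transcription factors of serotonin neurons and of other brainstem neurons, ran opposite to Tph2, at -3.89 (SE 0.18) and -1.72 (SE 0.09) for NTS minus RVLM. Htr5a, the relative of Htr5b, was at 1.67 (SE 0.10) for NTS minus RVLM, and Htr4 at 1.05 (SE 0.19). S100a10 was lower in the NTS than in the RVLM by -1.40 (SE 0.08). All of these were called, with adjusted p of at most 0.000222.

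The receptors also differed in which genes they resembled within a region. In the region where each receptor had its highest mean, the closest genes were found after group means were taken out. For Htr1a in the CVLM they were Tacr1 (r = 0.71), the substance P receptor, Tmem130, Lrpap1, Trerf1 and Hdac11 (0.67). For Htr1b in the CVLM they included Oprk1 (r = 0.72), the kappa opioid receptor, Plcxd2, Il6st and Usp29 (0.71). After Slc5a7, Htr2a in the RVLM was close to Fam49a (0.92), Slc6a15 and Dclk1. For Htr2c in the RVLM they included Slc4a10 (0.93), Napb, Impact and Steap2 (0.90), and for Htr3a in the RVLM they were Fstl4 (0.86), Tmem25, Sh3gl1, Prrt2 and Stx1a (0.81). For Htr5b in the CVLM the closest were Slc6a4 and Tph2, as given above, then AC108576.1 (0.68), Dpysl4 and Olr59 (0.64). Each r is over 46 libraries, across which punch position and depth vary for all genes at once, and is among the highest of 13219 genes compared in the CVLM or 13096 in the RVLM.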

How the data were processed

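The values deposited by the authors are RSEM expected counts per gene, 1 table per region. Per the study's methods, paired-end reads were mapped to rn6 with STAR within RSEM, and a ComBat_seq batch adjustment is named. Whether the deposited counts carry that adjustment is not stated, and 4.88% to 5.02% of their values were not whole. All 138 columns were used, rounded to whole numbers. A share of reads from overlapping genes or gene families can be split between genes by RSEM.

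The members and lists were chosen with earlier results of these data known. Genes with a maximum DESeq2 rlog of at least 3.5 in a region were tested: 13793, 13408 and 13411 in NTS, CVLM and RVLM. Each region was fitted in 1 model of 10 groups (strain and age) with edgeR 4.0.16 (TMM, robust quasi-likelihood test, R 4.3.3), and p-values were adjusted by Benjamini-Hochberg over all genes of a contrast. Calls were made at an adjusted p under 0.05. Regions were compared in a joint fit of 14043 genes with the rat as a block, because the labels name the rat: deviations from group means in the same rat correlated with a median r of 0.27 (NTS and CVLM), 0.21 (NTS and RVLM) and 0.08 (CVLM and RVLM), above 0.1 in 33, 31 and 23 of 46 rats. Alternatives used DESeq2 1.42.0 and limma 3.58.1 (voom). The log2 levels behind correlations are log2(CPM + 0.5). The search for genes of like pattern and the comparisons of whole libraries used genes with a mean of at least 1 CPM. The correlations of named gene pairs had no such limit and include Slc6a4 and Fev at lower means.

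All members are named in the text. Genes of the pathway lists are named where called between the strains or with the lowest p of their list, and up to 5 genes of like pattern for a member, of which some are not reported here. No pair of libraries within a group was a repeat (lowest chi-square per gene 5.07 over 270 pairs). The fits were tested on simulated data. The floors cover counting error only, while the SE of a fit also covers the spread between libraries.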

Additional observations from a re-analysis of the deposited data

Results flagged for a closer look

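In 20 of 168 groups of 4 to 10 libraries, the highest or lowest library lay apart from the others by more than Dixon's 95% limit. For independent, normally spread values chance gives about 1 in 20 groups. These CPM values include low counts, and the same library recurs for genes that correlate. The 20 groups therefore cannot be weighed against that share. No value was tested for its cause.

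WKY 10 wk replicate 4 gave 5 of them. In the CVLM this rat had Tph2 at 114 CPM (next 5.51), Slc6a4 at 28.1 CPM (next 0.368) and Htr5b at 21.7 CPM (next 1.78). In the RVLM it had Tph2 at 14.1 CPM (next 3.54) and Slc6a4 at 1.94 CPM (next 0.126). SHR 24 wk replicate 4 gave 3 in the CVLM: Tph2 at 16 CPM (next 5.45), Slc6a4 at 2.12 CPM (next 0.618) and Htr5b at 17.9 CPM (next 7.5). SHR 10 wk replicate 2 gave 2 in the RVLM, Tph2 at 11.4 CPM (next 3.52) and Slc6a4 at 3.27 CPM (next 0.276). SHR 12 wk replicate 6 gave 2 in the CVLM, Fev at 0.389 CPM (6 counts, next 0.113) and Htr5b at 12.5 CPM (next 2.51).

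Htr5b was also apart in SHR 8 wk replicate 3 (1.22 CPM, next 2.03) and SHR 10 wk replicate 4 (4.89 CPM, next 2.16) of the CVLM and in SHR 10 wk replicate 1 of the NTS (4.29 CPM, next 2.07). Tph2 was apart in SHR 24 wk replicate 3 of the RVLM (7.28 CPM, next 3.56). Htr2c was high in SHR 12 wk replicate 4 of the CVLM (278 CPM, next 185) and low in WKY 10 wk replicate 2 of the NTS (99.4 CPM, next 148). Htr1a was high in SHR 12 wk replicate 2 of the NTS (13.9 CPM, next 9.32). Htr7 was at 0.919 CPM in SHR 24 wk replicate 3 of the NTS, where the other 5 libraries of the group held none.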

How the results depend on the processing

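Counts of member calls are given against those of the report. With calls limited to adjusted p up to 0.01 and at least 2-fold, 0 strain differences averaged over ages, 0 at single ages, 3 age tests and 6 region differences were called. At an adjusted p under 0.2, 10 at single ages, 16 age tests and 1 strain difference between regions were called. With each age fitted alone 0 single-age tests were called, with no filter on low counts 2, and without the CVLM library WKY 10 wk replicate 4 (chosen after seeing the data) 2, where Tph2 at 10 wk reversed to 0.41 and Slc6a4 to 1.62 (log2). Over all fits without 1 rat, these lay between -2.85 and 0.41 and between -4.46 and 1.62. With the number in the library names as a term 2 single-age tests and 0 age tests were called; the causes of these changes were not tested. Leaving out 1 rat gave 7 to 9 calls for the averaged strain difference, 1 to 5 at single ages (1 or 2 without SHR 8 wk replicate 2, 3 or 4, WKY 8 wk replicate 3 or WKY 10 wk replicate 4) and 4 to 8 for age. Leaving out 1 replicate number of every group gave 18 to 20 calls for regions and 0 to 1 (1 without replicate 1) for the strain difference between regions. The interaction had 0 calls under every alternative run. Replicate numbers were not taken to pair the strains, since not every same-numbered pair had r above 0.1: 33 of 54 did (median 0.17), and 20 of 54 WKY libraries correlated best with their own number, a hint of pairing in some groups. With the replicate block 5 averaged strain differences were called, none of the 4 at single ages, and 1 other, Htr3a in the NTS at 8 wk (0.58, adjusted p = 0.0445); Htr1a in the NTS (0.28, adjusted p = 0.0515) and RVLM (0.65, adjusted p = 0.0825) and Htr5b in the RVLM (0.94, adjusted p = 0.101) were not. Without the rat block 20 region differences were called. Other alternatives for these counts, DESeq2 included, stayed within 1.5 times. Fev, Htr7 and Slc6a4 lay at or near the floor in most libraries, and the part of depth in this was not tested.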
